A study of Mus musculus with 16 samples.

Results

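The RB family, the E2F factors and the p16 locus were described in 16 mouse osteosarcomas by RNA sequencing. The members were 10 genes found by symbol in a table of 25054 genes, namely *Rb1*, *Rbl1*, *Rbl2*, *E2f1*, *E2f2*, *E2f3*, *E2f7*, *E2f8*, *Cdkn2a* and *Ccne1*, and all 10 passed the filter on low counts with 15413 genes in all. The 8 tumors labeled KO came from 8 OsxCreERT2+/-;p53fl/fl;Rb1fl/fl;Arid1afl/fl mice, and the 8 tumors labeled WT came from OsxCreERT2+/-;p53fl/fl;Rb1fl/fl mice. Both groups thus carried floxed *p53* (*Trp53*) and *Rb1* with an inducible Cre under the *Osterix* promoter, which is active in cells committed to the osteoblast lineage, and WT means wild type for *Arid1a* alone. Tamoxifen (400 ug/g) was injected when the mice were 1 month old, and the mice, of both sexes, were followed beyond 6 months. The animal codes put the WT tumors in 4 mice: N42 gave 4 tumors, N43 gave 2, and N215 and N25 gave 1 each, the last of which carries the label lung. KO tumors are named here by their animal (Massa, Medusa, Montana, Ohio, Prince, Grilka, Zelda and Oregon).

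RB1 and its relatives p107 (*Rbl1*) and p130 (*Rbl2*) are pocket proteins that bind E2F transcription factors and hold genes of DNA synthesis silent in resting cells. Cyclin D with CDK4 or CDK6, and then cyclin E (*Ccne1*) with CDK2, phosphorylate the pocket proteins and free the E2Fs. The *Cdkn2a* locus encodes p16, an inhibitor of CDK4 and CDK6, and p19ARF, which stabilizes p53 through MDM2. Loss of RB1 is known to raise p16, and *RB1* is among the genes most often lost in human osteosarcoma.

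In the GRCm38 build, GENCODE vM21 places the pocket protein genes *Rb1* at chr14:73183673-73325822 (minus strand), *Rbl1* at chr2:157145893-157204534 (minus strand) and *Rbl2* at chr8:91070057-91123844 (plus strand). The activator genes *E2f1*, *E2f2* and *E2f3* lie at chr2:154559407-154569892 (minus strand), chr4:136172394-136196057 (plus strand) and chr13:29906575-29986063 (minus strand). The repressor genes *E2f7* and *E2f8* lie at chr10:110745439-110787384 (plus strand) and chr7:48866429-48881596 (minus strand). *Cdkn2a* lies at chr4:89274471-89294653 and *Ccne1* at chr7:38097984-38107534, both on the minus strand. Exon bases are shared with a gene of the opposite strand over 896 bases in *Rb1* (*Rcbtb2* and *Lpar6*), 1585 in *Rbl2* (*Aktip* and *Gm45464*), 86 in *E2f7* and 610 in *E2f8*. Whether the counting used strand is not given in the sources used here, so reads of these stretches could belong to either gene.

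Several members are textbook E2F targets themselves, so their promoters were searched on both strands for 4 E2F words, TTTCCCGC, TTTCGCGC, TTTGCCGC and TTTGGCGC. RefSeq promoters (GRCm38.p6, 250 bases before to 50 after the transcript start) were at hand for 9 of the 10 members, all but *Rb1*. A word was present in 5 of the 9 (55.6%), in 4.67% of tested genes with a promoter and in 45.5% of 33 genes of a hand-written E2F target list. The members carrying one were *Rbl1*, *E2f2*, *E2f3*, *E2f7* and *Cdkn2a*, whose windows of 30 bases are shown with the word in capitals, read along the strand of the gene.
Rbl1, chr2:157204534-157204563: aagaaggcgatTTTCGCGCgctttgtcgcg
E2f2, chr4:136172294-136172323: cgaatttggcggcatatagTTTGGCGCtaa
E2f3, chr13:29986056-29986085: ttgaaaagccgGCGGGAAAtctgagtttcg
E2f7, chr10:110745230-110745259: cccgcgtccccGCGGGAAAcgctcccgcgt
Cdkn2a, chr4:89294700-89294729: ctctgggaagcTTTCCCGCgcgactgggga
The *Cdkn2a* word lies 99 bases before the upstream of its 2 starts (chr4:89294619), the start of p19ARF, and none was found around the downstream start of p16 (chr4:89282192). These letters were not in the windows of *Rbl2*, *E2f1*, *E2f8* and *Ccne1*. A match describes the sequence and does not show binding.

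Between 1109487 and 15059640 counts were on genes in the KO tumors and between 7806160 and 16962329 in the WT tumors. The libraries Massa and Grilka were the shallowest, and 3 counts there were worth 6.69 and 4.03 CPM (counts scaled to a common library size by TMM) against 0.146 to 0.839 CPM in the other tumors. *Arid1a* itself averaged 187 CPM in KO and 167 CPM in WT (log2 fold change 0.16 ± 0.22 SE, edgeR adjusted p = 0.715), and counts over whole genes do not show a loss of floxed exons in *Arid1a* or *Rb1*. Summed over 11 osteoblast genes, the level was 16496 to 55034 CPM in 9 tumors, 7200 in Zelda, 3196 in N215, and between 449 and 2175 CPM in Massa, Montana, Oregon, Prince and N25, so the defining markers of the labeled tumor type were low in those 5. Genes of skeletal muscle took 8.16% of the counts of Montana and 9.76% of those of Oregon, and salivary gland genes took 1.91% of those of Prince. Lung genes took 3.82% of the counts of the WT tumor N25 and 0.455% of those of Massa, against at most 0.00205% elsewhere. Macrophage genes summed to 123 to 558 CPM in KO (median 353) and 313 to 1872 CPM in WT (median 1593). In bulk tumors, fewer cells of a type and less RNA per cell cannot be told apart.

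None of the 10 members differed between KO and WT tumors in edgeR's quasi-likelihood test (0 of 10 at an adjusted p under 0.05, where 4.01% of 15413 genes passed, 1.86% higher and 2.15% lower in KO). At an unadjusted p under 0.05 it was again 0 of 10, against 23.0% of all genes, and the groups overlapped for all 10, while they did not overlap for 0.415% of genes. DESeq2, which called 12.5% of the genes it tested, also called 0 of the 10. The estimates were above 0 for 9 members and below 0 for *Cdkn2a*, and their median was 0.32 on the log2 scale, where that of all tested genes was 0.10. This balance held for edgeR's estimates and not on other scales: with limma-voom and the mouse as a random effect 6 of the 10 were below 0 (median −0.075), as were 6 of 10 differences in mean log2 CPM over tumors (median −0.27) and 7 of 10 over mice (median −0.51).

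**Figure D1:**
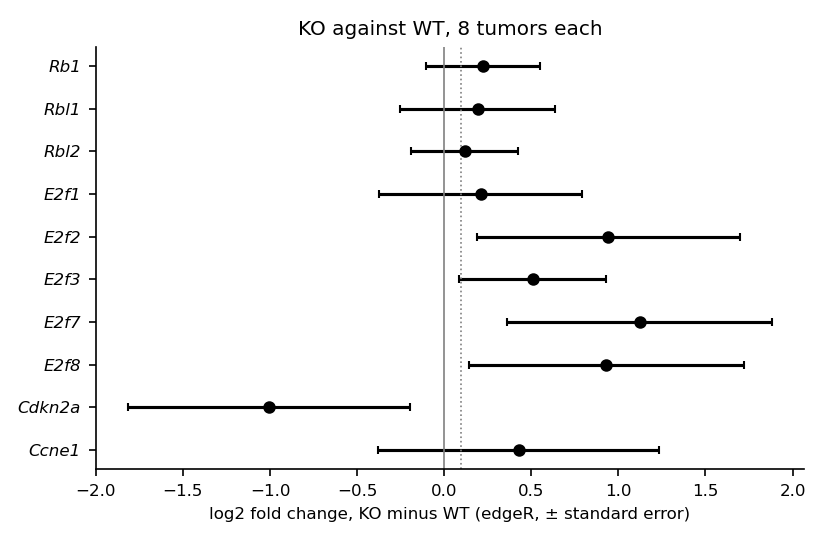
Log2 fold change of each member, KO minus WT, from edgeR over 8 tumors a group (points) with its standard error (bars); the solid line marks 0 and the dotted line the median of all tested genes, 0.10. *Cdkn2a* lies at −1.01 and the other 9 members lie between 0.12 and 1.12, while differences in mean log2 CPM were below 0 for 6 of the 10.

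Of the pocket proteins, *Rb1* was read at 27.8 to 161 CPM in KO (median 50.1) and 38.1 to 80.0 CPM in WT (median 48.7). Zelda was the highest at 161 CPM, and Prince and Massa were read below every WT tumor at 27.8 and 28.996 CPM. The value of Massa rests on 13 counts. Its exact Poisson 95% interval, 15.4 to 49.6 CPM, reaches past the lowest WT tumor at 38.1 CPM. The log2 fold change was 0.22 ± 0.33 (SE, edgeR adjusted p = 0.734), and without Zelda it was −0.14. Zelda also held 1547 CPM of erythroid, 539 CPM of lymphoid and 1359 CPM of liver genes. The part of these cell types in its *Rb1* value was not tested. Since all 16 tumors carried floxed *Rb1*, both groups hold the same kind of allele.

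*Rbl1* (p107), the pocket protein gene that rises with cell cycle entry, ranged from 8.67 to 63.1 CPM in KO (median 18.9) and from 19.3 to 46.4 CPM in WT (median 24.6). The KO tumors lay on both sides of WT. Medusa, Zelda and Ohio at 63.1, 62.7 and 49.7 CPM were read above every WT tumor. Montana, Massa, Prince and Oregon at 8.67, 8.92, 9.30 and 10.9 CPM were read below every one. For Massa this rests on 4 counts. Its exact Poisson 95% interval, 2.43 to 22.8 CPM, reaches past the lowest WT tumor at 19.3 CPM. That of Ohio, 45.5 to 54.2 CPM, covers the highest WT tumor at 46.4 CPM. The log2 fold change of 0.19 ± 0.45 (SE, edgeR adjusted p = 0.841) averages these opposite positions.

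*Rbl2* (p130), the pocket protein of resting cells, had another order. It was highest in Prince, Montana and Oregon, at 120, 105 and 84.2 CPM, above every WT tumor, and the remaining KO tumors lay at 32.2 to 64.0 CPM, with Massa at 33.5 CPM, low in both *Rbl1* and *Rbl2*. WT tumors ranged from 26.1 CPM in N215 to 79.5 CPM in N43 pelvis (median 66.5). The exact Poisson 95% interval of Oregon, 74.9 to 94.2 CPM, covers the value of N43 pelvis. The log2 fold change of *Rbl2* was 0.12 ± 0.31 (SE, edgeR adjusted p = 0.861), and it was −0.47 without Montana, Oregon and Prince.

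The log2 ratio of *Rbl1* to *Rbl2* counts puts both in 1 value per tumor that does not depend on library scaling. It was −1.47 ± 1.76 in KO and −1.21 ± 0.75 in WT (mean ± SD, n = 8 tumors each), a difference of −0.26 (two-sided exact permutation p = 0.702). In KO, Prince, Montana and Oregon were at −3.69, −3.58 and −2.93 and Massa at −1.78, while Grilka, Ohio, Zelda and Medusa lay between −0.26 and 0.71. WT tumors lay between −2.04 in N43 pelvis and 0.09 in N215, the only one above 0. The 3 tumors with the lowest ratios were those with the muscle and salivary gland counts given above, and the part of those counts in the ratio was not tested. Without these 3 tumors the difference was 0.90. Leaving out the 3 lowest KO values raises the KO mean by construction, so this value is given without a test.

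**Figure D2:**
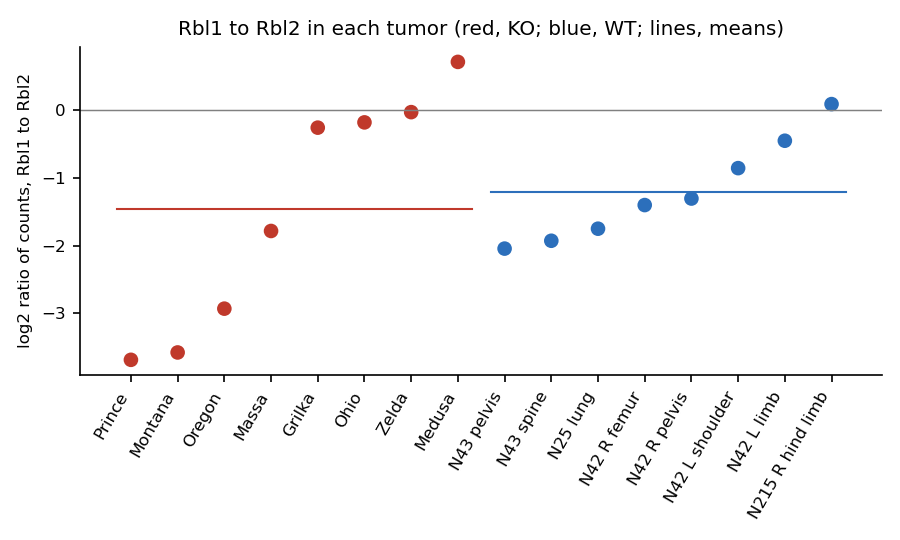
Log2 ratio of *Rbl1* to *Rbl2* counts in each tumor (points; red KO, blue WT), with a line at the mean of each group. Prince, Montana and Oregon lie at −3.69, −3.58 and −2.93, below the lowest WT tumor at −2.04.

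*Cdkn2a*, the p16 locus, was high in most WT tumors and in 3 KO tumors and near 0 in 4 KO tumors. In WT, 6 of 8 tumors were at 46.6 to 73.7 CPM, N43 pelvis was at 20.8 and N25 lung at 10.97 CPM (median 57.2). In KO, Grilka at 84.6 CPM was read above every WT tumor. Ohio and Medusa were at 45.9 and 42.9 CPM and Zelda was at 13.9. Oregon, Massa, Montana and Prince at 2.52, 2.23, 1.28 and 0.249 CPM were read below every WT tumor (KO median 8.21).

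These low values rest on few counts of *Cdkn2a*, 9 in Oregon, 5 in Montana, 3 in Prince and 1 in Massa. The exact Poisson 95% intervals were 0.0514 to 0.728 CPM in Prince, 0.414 to 2.98 in Montana, 1.15 to 4.78 in Oregon and 0.0565 to 12.4 in Massa, and they cover counting error only. In Prince, Montana and Oregon the upper bounds were below 10.97 CPM, the value of N25, the lowest WT tumor. In Massa the interval reached past it, so at that depth no difference from N25 was detectable. For Grilka, read above WT on 63 counts, the interval was 65.0 to 108 CPM and covers N43 spine at 73.7 CPM.

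The edgeR log2 fold change of *Cdkn2a* was −1.01 ± 0.81 (SE, adjusted p = 0.485). On mean log2 CPM, which weights each tumor equally, the difference was −2.49 (two-sided exact permutation p = 0.0325 over 12870 splits of the tumors, not adjusted). That was the smallest p of the 10 members, and the others lay between 0.426 and 0.974. With counts summed per mouse, 8 KO against 4 WT, the difference was −2.20 (exact permutation p = 0.178), and a difference between the groups beyond the spread between mice was not shown. Gene counts cannot tell the p16 transcript from the p19ARF transcript, which share their later exons.

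The tumors lowest in osteoblast genes were also low in *Cdkn2a*. The 5 tumors with at most 2175 CPM of summed osteoblast genes had 0.249 to 10.97 CPM of *Cdkn2a*, and the 9 tumors with 16496 CPM or more had 20.8 to 84.6 CPM. N215 stood apart with 3196 CPM of osteoblast genes and 46.6 CPM of *Cdkn2a*. Within a mouse the 2 did not move together. In N42 osteoblast genes ran from 16532 to 55034 CPM at 57.1 to 59.6 CPM of *Cdkn2a*. In N43 the pelvis tumor had 40649 CPM of osteoblast genes and 20.8 CPM of *Cdkn2a*, against 34603 and 73.7 CPM in the spine. Among all tested genes, those most like *Cdkn2a* over the 16 tumors by Pearson r of log2 CPM were *Antxr1* (0.96), *Col5a2* (0.96), which encodes a fibrillar collagen chain, and *Zc3hav1l* (0.95). The part of the tumor content in the *Cdkn2a* values was not tested.

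**Figure D3:**
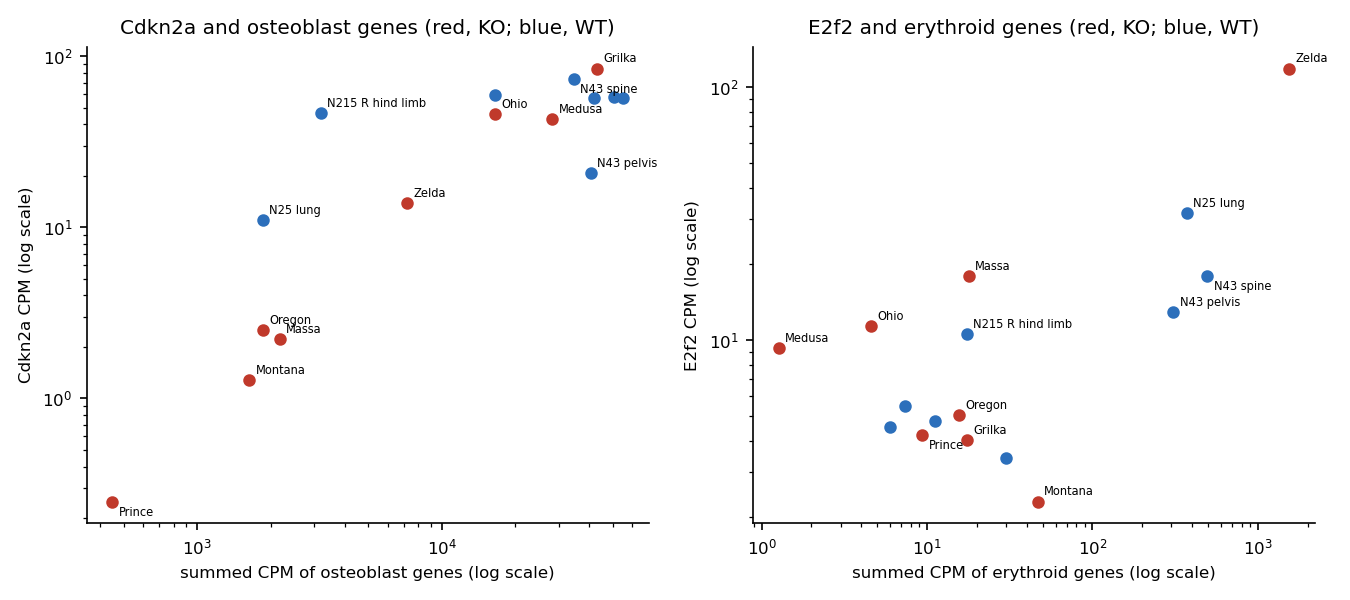
Left, *Cdkn2a* CPM against the summed CPM of 11 osteoblast genes; right, *E2f2* CPM against the summed CPM of 8 erythroid genes; each point is 1 tumor (red KO, blue WT, the 4 tumors of N42 without names) and all axes are logarithmic. The 4 KO tumors lowest in *Cdkn2a* lie at the low end of the osteoblast axis, and Zelda is highest on both axes of the right panel.

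Within a mouse, *Cdkn2a* could be alike or not. The 4 tumors of N42 lay between 57.1 and 59.6 CPM, a 1.04-fold range, narrower than that of *Rb1* (1.15-fold) and of *E2f7* (4.47-fold) in the same tumors. The spine and pelvis tumors of N43 were at 73.7 and 20.8 CPM, a log2 difference of 1.82. *E2f8* and *Ccne1* also differed between the N43 tumors, by 1.16 and 1.505 on the log2 scale, whereas *Rbl1* and *Rbl2* differed by 0.082 and 0.033.

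Cyclin E1 (*Ccne1*), the cyclin that drives CDK2 at the start of DNA synthesis, was read at 0 to 19.5 CPM in KO (median 4.45) and 0.879 to 21.0 CPM in WT (median 3.19). N215 was highest at 21.0 CPM, followed by Zelda, Medusa and Ohio at 19.5, 15.4 and 14.2 CPM. Prince, Montana and Oregon were at 0.498 to 0.839 CPM and Massa had 0 counts, which allows up to 6.69 CPM by the limit of 3 counts and up to 8.23 CPM by the exact Poisson 95% bound. KO minus WT, the estimate was 0.43 ± 0.81 (SE, edgeR adjusted p = 0.798), 0.039 without Zelda, and the difference in mean log2 CPM was −0.59 (exact permutation p = 0.579).

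Of the activators, *E2f1* reached 33.6, 28.1, 21.5 and 19.8 CPM in Ohio, Medusa, Grilka and Zelda and 2.30 to 4.19 CPM in Montana, Prince and Oregon, with 0 counts in Massa (KO median 11.999). WT tumors were read above those low KO tumors, from 6.20 CPM in N25 to 24.96 in N215 (median 11.4). The upper exact Poisson 95% bound was 8.23 CPM in Massa and 6.92 CPM in Oregon, past the value of N25. The log2 fold change was 0.21 ± 0.58 (SE, edgeR adjusted p = 0.869). The genes most like it over the 16 tumors were *Tube1*, *Zfp157* and *Cgas*, each at r = 0.98.

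*E2f2* followed another order. Zelda was highest at 118 CPM, then N25 lung at 31.8, N43 spine at 18.0 and Massa at 17.8 CPM on 8 counts, and the other 12 tumors lay between 2.30 and 12.9 CPM. *E2f2* is known for high expression in red cell precursors. Summed over 8 erythroid genes, Zelda had 1547 CPM, N43 spine 495, N25 373 and N43 pelvis 308, and the other 12 tumors had at most 46.9 CPM. Lymphoid genes were also highest in Zelda (539 CPM) and N25 (82.0 CPM), with at most 13.2 CPM elsewhere, and Zelda held 1359 CPM of liver genes. Its log2 fold change was 0.94 ± 0.76 (SE, edgeR adjusted p = 0.483) and −0.64 without Zelda, and the part of these cell types in it was not tested.

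*E2f3* was the activator with the least spread in WT after *E2f1*, at 8.39 to 40.9 CPM (median 15.8), and was read at 4.46 to 67.1 CPM in KO (median 21.2). Grilka and Ohio were above every WT tumor at 67.1 and 44.3 CPM, and Massa was read below every one on 2 counts. The exact Poisson 95% interval of Massa, 0.540 to 16.1 CPM, reaches past the lowest WT tumor. That of Ohio, 40.3 to 48.5 CPM, covers the highest WT tumor at 40.9 CPM. The log2 fold change of *E2f3* was 0.51 ± 0.42 (SE, edgeR adjusted p = 0.5001), and the direction was the same in all 26 alternatives.

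The repressors *E2f7* and *E2f8*, atypical E2Fs that act without a DP partner and dampen E2F targets late in S phase, had the largest SD of log2 CPM among the members in KO (3.03 and 2.95). *E2f7* was at 62.9 CPM in Medusa, 33.6 in Grilka and 0.249 in Prince, with 0 counts in Massa, and at 2.67 to 22.3 CPM in WT (median 5.94). *E2f8* was at 44.3 and 33.4 CPM in Zelda and Medusa, 0.581 to 1.79 CPM in Prince, Oregon and Montana, 0 counts in Massa, and 2.97 to 25.5 CPM in WT (median 5.77).

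For both repressors, N215 was the highest WT tumor. The log2 fold changes were 1.12 ± 0.76 for *E2f7* and 0.93 ± 0.79 for *E2f8* (SE, edgeR adjusted p = 0.395 and 0.510). Without Medusa that of *E2f7* was 0.46, and without Zelda that of *E2f8* was 0.45. The differences in mean log2 CPM had the opposite sign, −0.27 for *E2f7* and −0.48 for *E2f8* over tumors (exact permutation p = 0.809 and 0.673) and −0.61 and −0.81 over mice. Over the 16 tumors, the genes most like *E2f8* were *Kif15* (r = 0.97), *Cenpu* (0.97) and *Brip1* (0.96), and those most like *Ccne1* were *Kif15* (0.98), *Orc1* (0.97) and *Ticrr* (0.97). *Kif15* encodes a mitotic kinesin, and *Orc1* and *Ticrr* act in the start of DNA replication. *Rb1* had no neighbor as close, the nearest being *Nxpe2*, *Cyp2e1* and *9930111J21Rik1* at r = 0.81.

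**Figure D4:**
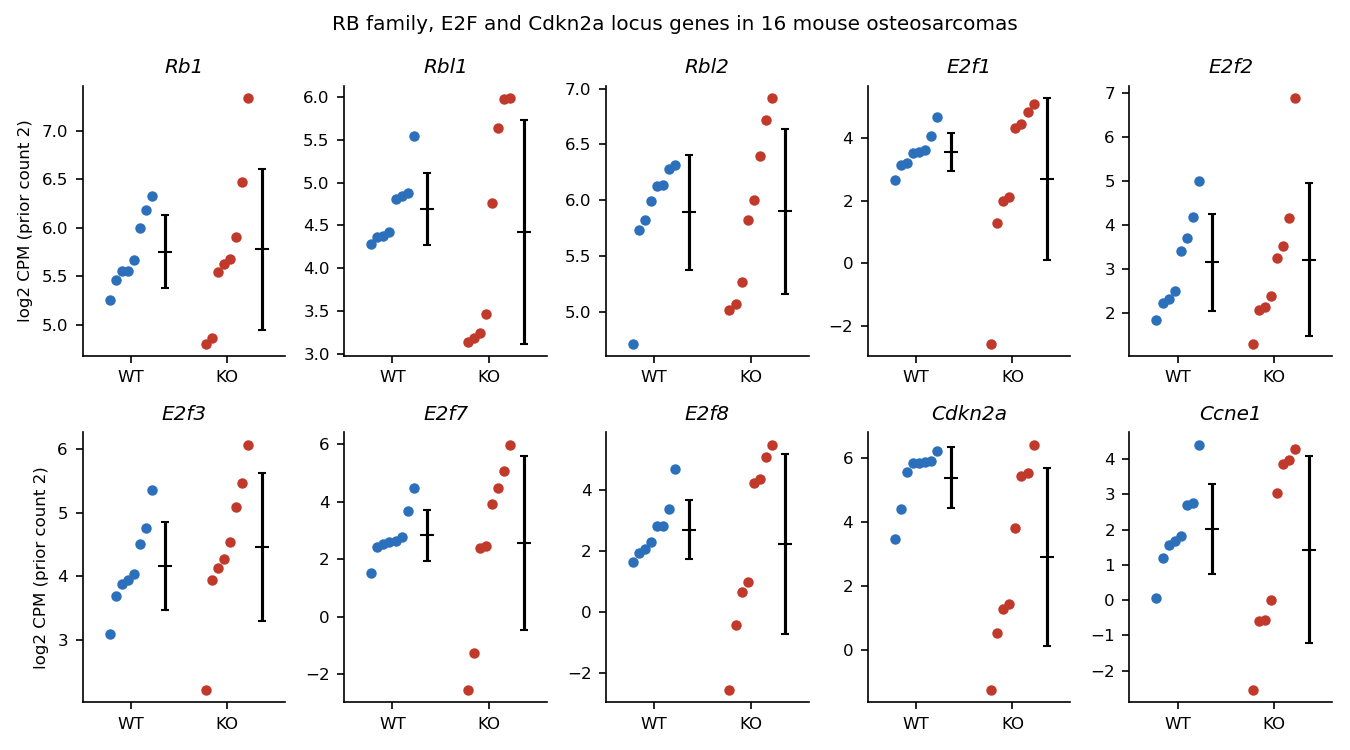
Log2 CPM (with a prior count of 2, so that 0 counts can be drawn) of the 10 members in each of the 8 WT (blue) and 8 KO (red) tumors, sorted within each group, with the mean and SD beside the points. The groups overlap for all 10 genes, and the KO points spread more widely than the WT points.

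The spread between tumors was wider in KO than in WT for all 10 members. The ratio of the SD of log2 CPM in KO to that in WT had a median of 2.57 over the members, from 1.43 in *Rbl2* to 4.27 in *E2f1*. Over all tested genes the median ratio was 2.01, and 90.4% of genes had the larger SD in KO. Without the shallow libraries Massa and Grilka, 9 of 10 members kept the larger SD in KO (median ratio 2.46), against 80.7% of all genes (median ratio 1.63). The KO tumors came from 8 mice and the WT tumors from 4, so the mouse and the group cannot be told apart in this spread.

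Per kilobase of merged exons, *Cdkn2a* was the highest member in WT by median, at 48.8 CPM per kb, and it exceeded *Rbl2* in 8 of 8 WT tumors. In N25 *Rb1* was the highest member, at 13.3 CPM per kb against 9.36 for *Cdkn2a*. By median, *Rbl2* and *Rb1* followed at 8.799 and 8.10 and could not be ordered, since *Rbl2* was the higher in 2 of 8 tumors. *Rbl1* (4.10), *E2f1* (3.602) and *E2f3* (2.91) formed the middle, where *Rbl1* was above *E2f1* in 5 of 8 tumors and *E2f1* above *E2f3* in 7 of 8. *E2f2* (1.64), *Ccne1* (1.20), *E2f8* (1.06) and *E2f7* (0.660) were lowest. In KO the medians were led by *Rb1* (8.33), *Rbl2* (7.96) and *Cdkn2a* (7.01), and *E2f7* was again the lowest (1.12).

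To set the members beside the expression of E2F targets, a score was formed as the mean standardized log2 CPM of 40 E2F target genes, none of them a member. By tumor it ran from −1.42 in Massa, −1.29 in Montana, −1.04 in Oregon and −0.99 in Prince, through the WT tumors of N25, N43 and N42 at −0.45 to 0.49, to 0.64 in Grilka, 0.89 in N215, 0.97 in Zelda and 1.13 in Medusa and Ohio. The KO tumors thus lay at both ends of the score.

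Over 12 mice, with counts summed per mouse, 6 of the 10 members rose with the score at an adjusted p under 0.05 (100000 permutations, adjusted over 16007 genes, of which 6.83% passed in that direction), and no member fell with it, as 3.45% of the genes did. They were *Ccne1* (r = 0.97, rho = 0.90), *Rbl1* (0.96 and 0.94), *E2f8* (0.93 and 0.90) and *E2f1* (0.87 and 0.97), each with a permutation p for r of 1e-05, the smallest that can be given, and an adjusted p of 0.00121. *E2f7* followed (r = 0.82, rho = 0.91, permutation p = 9e-05, adjusted p = 0.00471), and then *Cdkn2a* (r = 0.82, rho = 0.70, permutation p = 0.00181, adjusted p = 0.0285). Permutation p-values for rho were 5e-05 for *Rbl1*, 1e-05 for *E2f1*, 0.0001 for *E2f7*, 0.00018 for *E2f8*, 0.00014 for *Ccne1* and 0.0135 for *Cdkn2a*. Without the 2 mice farthest from the median score, Massa and Montana, r was 0.75 for *Cdkn2a* and 0.83 to 0.99 for the other 5. Several members are textbook E2F targets themselves, so a rise with other E2F targets was likely in advance. These relations are therefore a description and not an independent result.

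The other 4 members did not pass. *E2f3* had r = 0.63 and rho = 0.66 (permutation p = 0.0286 and 0.0216, adjusted p for r = 0.138), and r was 0.45 without the 2 farthest mice. *Rbl2* had r = −0.47 and rho = −0.43 (permutation p = 0.121 and 0.162), and r was −0.73 without those mice. *E2f2* had r = 0.33 and rho = 0.21 (permutation p = 0.301 and 0.515), and *Rb1* had r = 0.22 and rho = 0.021 (permutation p = 0.4995 and 0.956). Without the same 2 mice r was 0.32 for *E2f2* and 0.21 for *Rb1*.

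Since the scores of 4 KO mice (Massa, Montana, Oregon and Prince, at −0.85 or below) were apart from the others, the relations were computed again in the 8 mice above −0.37. There r was 0.97 for *E2f1*, 0.96 for *Ccne1*, 0.92 for *E2f8*, 0.84 for *Rbl1* and 0.82 for *E2f7*, with exact permutation p-values of 0.000248, 0.00134, 0.00223, 0.0137 and 0.0165. Adjusted over all 16007 genes none of these passed (0.136 to 0.313), nor did any gene, and at an unadjusted p under 0.05 6.43% of genes rose with the score. *Cdkn2a* had r = 0.30 and rho = 0.14 (n = 8 mice, exact permutation p = 0.483 and 0.752). The 8 mice cover a narrower range of scores, which can lower r. These values therefore do not show what the relation of *Cdkn2a* over 12 mice rested on. Osteoblast genes were low in the 4 KO mice left out, and the part of tumor content in that relation was not tested. The score and the members come from the same libraries and share their depth.

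**Figure D5:**
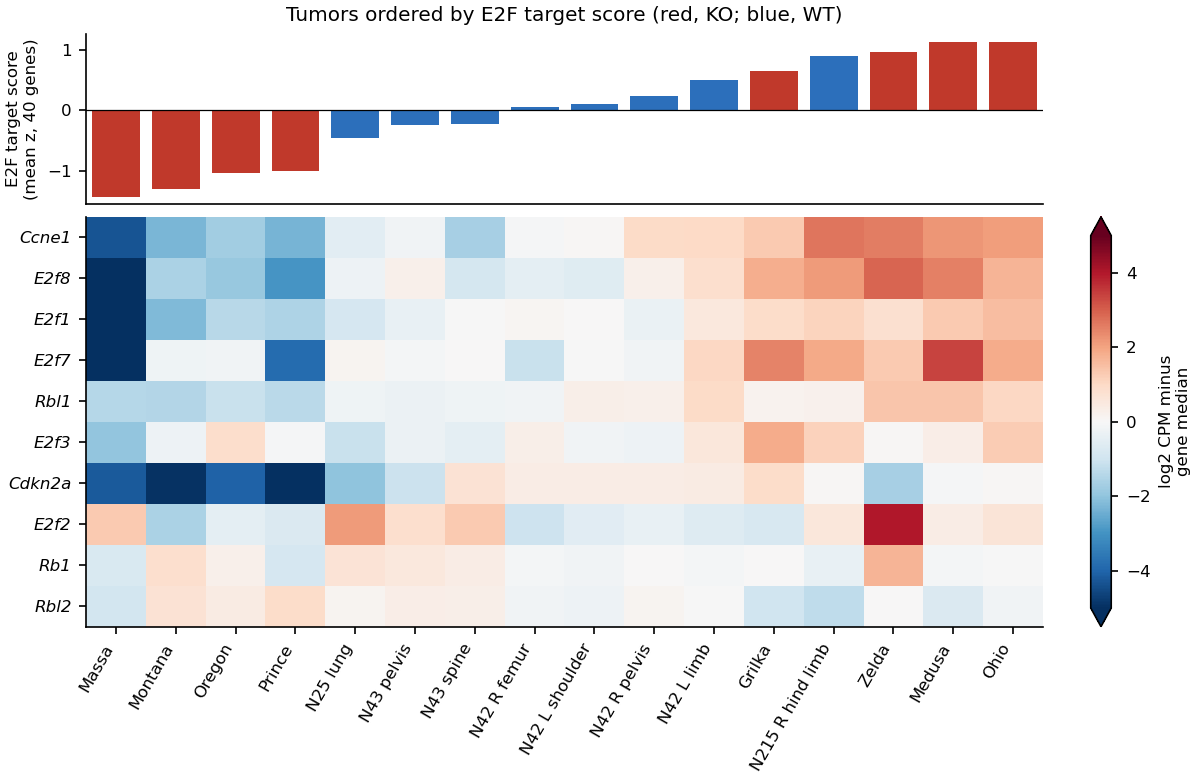
Log2 CPM of each member relative to its median over 16 tumors (color), with tumors ordered by the E2F target score, from −1.42 in Massa to 1.13 in Medusa and Ohio. The bars above give that score (red KO, blue WT), and colors saturate beyond the ends of the scale. *Ccne1*, *Rbl1*, *E2f1*, *E2f7* and *E2f8* change from low to high along the score, while *Rbl2*, *Rb1* and *E2f2* follow other orders.

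Among the other genes of the pathway, 27 of 28 listed regulators were tested, with 13 estimates above 0 and 14 below (median −0.11 on the log2 scale), and 1 was called (3.70%, against 4.01% of all genes). This was *E2f4*, the E2F that partners p130 and p107 in repression. It was at 33.5, 34.8, 36.7, 40.1, 53.6, 53.7, 57.1 and 63.2 CPM in KO and at 14.5, 14.7, 16.6, 18.6, 18.9, 21.1, 21.4 and 27.6 CPM in WT. No KO tumor overlapped WT, and the log2 fold change was 1.28 ± 0.21 (SE, edgeR adjusted p = 0.00530). With counts summed per mouse, edgeR's adjusted p was 0.308, and the exact permutation p was 0.00202 for *E2f4* alone. Macrophage genes (medians of 353 CPM in KO and 1593 in WT) and osteoblast genes (4687 and 37626 CPM) were also apart between the groups, with overlap, and their part in the *E2f4* values was not tested.

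At an unadjusted p under 0.05, 4 regulators were higher and 5 lower, *E2f4* included (33.3% of 27, against 23.0% of all genes). The higher ones included *Tfdp1* (2.39 on the log2 scale, edgeR adjusted p = 0.144), which was at 3155 CPM in Medusa. Its median was 63.7 CPM in KO and 72.2 CPM in WT. The D cyclin *Ccnd1* and its kinase *Cdk6* were estimated at −1.56 and −1.34 on the log2 scale (edgeR adjusted p = 0.0789 and 0.109). *Cdkn2b*, the p15 gene next to *Cdkn2a*, was at 1.28 to 13.4 CPM in KO and 2.01 to 17.3 CPM in WT, and its estimate was −1.21 (log2, edgeR adjusted p = 0.183). Of the 40 E2F targets, 33 estimates were above 0 and 7 below (median 0.41). Of all 15413 tested genes, 8611 were above 0 (median 0.10). Of the 40 targets, 0 were called by edgeR and 0 had an unadjusted p under 0.05, against 4.01% and 23.0% of all genes. This balance was seen in edgeR's estimates only. The score of the same 40 genes, formed on log2 CPM, was on average lower in KO than in WT. KO tumors lay at both its ends (−1.42 in Massa and 1.13 in Ohio). The most abundant target, *Dnmt1*, the maintenance DNA methyltransferase, was estimated at 0.93 on the log2 scale (edgeR adjusted p = 0.292), and *Rrm1*, a ribonucleotide reductase subunit, at −0.47 (edgeR adjusted p = 0.542).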

How the data were processed

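RNA from 16 mouse osteosarcomas was depleted of ribosomal RNA and sequenced from one end. The authors aligned reads to mm10 with Novoalign (version 2.08.01 in the submitters' processing notes), kept the best of the allowed alignments per read, counted reads per gene with USeq and deposited raw counts, and ran their own comparison in DESeq2 1.26.0. The strand of counting is not given in the sources used here.

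Counts were normalized by TMM and tested with edgeR 4.0.16 (R 4.3.3; filterByExpr with a minimum count of 10 and total of 15, glmQLFit, glmQLFTest) on all 16 tumors, without covariates, and p-values were adjusted by Benjamini-Hochberg over 15413 genes with a threshold of 0.05. The standard error was taken from the fold change and its F statistic. Log2 CPM used a prior count of 2. Tumors of one mouse are not independent, but the p-values over tumors treat them as independent. Exact two-sided permutation tests used all 12870 splits of tumors or 495 of mice. Correlations were computed over mice. In simulated data for this comparison with 15413 genes, edgeR recovered 44 of 50 genes changed by −3, 30 of 50 by −2, 31 of 50 by 2 and 42 of 50 by 3 on the log2 scale, and called 4 unchanged genes. Each simulated tumor was drawn independently, so the likeness of tumors of one mouse was left out. These rates therefore do not measure recovery or error for the real tumors. The biological coefficient of variation was 70.4%. DESeq2 1.42.0, limma 3.58.1 (voom, taking the mouse as random), other normalizations, no filter and leaving out tumors were alternatives. Python 3.11.15 with scipy 1.17.1 was used for permutations.

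The members and gene lists were chosen with earlier results of these data known. The genes named are the members, the pathway genes past the threshold and abundant E2F targets. *Ccnd1*, *Cdk6* and *Cdkn2b* were chosen after their values were seen. Also named are the 3 nearest genes by correlation for *Rb1*, *E2f1*, *E2f8*, *Cdkn2a* and *Ccne1*, then *Arid1a*, and *Tfdp1* with the genes next to it. A relation with the score within 8 mice, its adjustment over all genes, and the spread without Massa and Grilka were alternatives added after seeing the data.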

Additional observations from a re-analysis of the deposited data

Results flagged for a closer look

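In WT, *Rbl1* was highest in the left limb tumor of N42, with a log2 CPM of 5.54 and 46.4 CPM, against 19.3 to 29.2 CPM in the other 7 tumors, and its distance to the next tumor was 0.526 of the range of the group, just past the limit for 8 samples. *Rbl2* was lowest in N215, with a log2 CPM of 4.71 and 26.1 CPM, against 52.9 to 79.5 CPM in the other 7 WT tumors, at 0.634 of the range. These were 2 of 22 sets of tumors examined, and chance marks about 5% of such sets.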

How the results depend on the processing

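No paired analysis was possible because KO and WT tumors came from different mice and their replicate numbers are names only. The number of genes called was 618 and moved to 2517 with DESeq2, 10 with counts summed per mouse, 17 with limma-voom and the mouse as a random effect, and 8 without the 4 tumors of N42. Leaving out 1 tumor at a time it ranged from 252 (N42 left shoulder left out) to 1348 (without Zelda). No member was called in any of the 26 alternatives. The number of pathway genes called, 1 in the report, was 3 with DESeq2, 0 per mouse, 0 with limma-voom, 2 without Massa and Grilka, 3 without Montana, Oregon and Prince, 0 without N42, and 1 to 4 leaving out 1 tumor at a time, with 4 without Zelda and 2 without Massa. *E2f4* was past the threshold in 23 of 26 alternatives, and its adjusted p was 0.308 per mouse, 0.212 with limma-voom and 0.359 without N42. The fold change turned its sign with DESeq2 for *E2f2* (−0.59), and with limma-voom for *E2f1* (−0.20), *E2f2* (−0.052), *E2f7* (−0.19), *E2f8* (−0.10) and *Ccne1* (−0.12). Without Montana, Oregon and Prince that of *Rbl2* was −0.47 and the difference in the ratio of *Rbl1* to *Rbl2* was 0.90. Leaving out 1 tumor at a time, the fold change ranged from −0.14 to 0.33 for *Rb1*, −0.061 to 0.35 for *Rbl1*, −0.060 to 0.21 for *Rbl2*, −0.12 to 0.48 for *E2f1*, −0.64 to 1.37 for *E2f2*, 0.46 to 1.55 for *E2f7*, 0.45 to 1.51 for *E2f8* and 0.039 to 1.16 for *Ccne1*, and the difference in the ratio from −0.57 to 0.056. The tumors whose absence turned the sign were Zelda for *Rb1*, *Rbl1* and *E2f2*, Medusa for *Rbl1* and *E2f1*, Ohio for *E2f1*, and Montana and Prince for *Rbl2* and the ratio. The cause was not tested. *Cdkn2a* was lower in KO in all 26 alternatives (−2.35 to −0.36, adjusted p 0.250 to 0.913), and *E2f3* higher in all 26 (0.21 to 0.80).

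Depth limits the low values of Massa and Grilka, where 3 counts were worth 6.69 and 4.03 CPM. The WT group rests on 4 mice, 4 of its 8 tumors from N42, and sex, batch and body site of the KO tumors could not be taken into account.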

Other observations

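*Tfdp1*, the DP1 partner of the E2Fs, was at 3155 CPM in Medusa and at 26.8 to 194 CPM in the other 15 tumors. Some of its neighbors on chromosome 8 were also high in Medusa. Of 22 other protein-coding genes tested within 1 Mb, 13 were highest in Medusa of all 16 tumors, and 12 were also over 5 times the median of the other tumors (6.83 to 52.0 times), between positions 12873806 and 14090301 (GRCm38). They included *Cul4a*, a ubiquitin ligase scaffold (2814 CPM, 25.8 times), *Cdc16*, a subunit of the anaphase-promoting complex (2150 CPM, 43.5 times), and *Tmco3* (819 CPM, 34.4 times). The other 10 neighbors were at 0.344 to 2.69 times that median, among them *Gas6* (1.52 times), *Upf3a* (1.07 times) and *Champ1* (0.740 times), which lie between the raised genes. DNA copy number was not measured in these data. The region was chosen after the value of *Tfdp1* in Medusa was seen.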
